A study of Homo sapiens with 4 samples.

Results

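HOX cluster genes were measured in MG-63 and Saos-2, a pair of osteosarcoma cell lines, and are described here cluster by cluster. They were taken as every probe set whose only gene symbol is a numbered HOXA, HOXB, HOXC or HOXD gene, and the brightest probe set stood for each gene. This gave 23 of the 33458 genes on the arrays with a probe set of their own, and 23 of the 39 HOX genes in RefSeq. HOXA2 was the only member of the 11 HOXA genes, and 8 of 10 HOXB genes, 6 of 9 HOXC genes and 8 of 9 HOXD genes were members. The other 16, among them the remaining HOXA genes, were not analysed here. MG-63 and Saos-2 are established lines, each grown from the osteosarcoma of 1 patient, and total RNA was hybridised to Affymetrix whole-transcript arrays. From each line 1 array was hybridised with RNA of cells that had received sh-circ_0000073, a short hairpin RNA against the circular RNA hsa_circ_0000073, and 1 array with RNA of cells that had received sh-NC, its negative control. Both hairpins were delivered with Lipofectamine, and the titles of the samples call them si- while the characteristics call them sh-. The study asked which mRNAs change when the circular RNA is depleted. No probe set was matched to hsa_circ_0000073, so the depletion itself has no value here.

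HOX genes encode homeodomain transcription factors that tell a cell where along the body or limb it lies. They stand in clusters on 4 chromosomes, and their order along each cluster follows the order in which they are used from head to tail, with low-numbered genes acting in front and high-numbered genes acting behind and toward the digits. Genes of the same number in different clusters are paralogs, and mesenchymal cells such as fibroblasts and osteoblasts keep a HOX pattern of their site of origin in culture.

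The values are log2 signals, and the array medians over all probe sets lay between 3.74 and 3.75. The 400 olfactory receptor genes, which bone cells are not known to use, served as a reference for dim signals, with medians of 3.55 to 3.82 and 95th percentiles of 4.58 to 4.98. A signal of at least 6 was taken as clearly above that range. Of the 8 genes used to check the lines, 6 were lower in MG-63 and RB1 was higher, whereas SPP1 was not called. RUNX2, a transcription factor that starts osteoblast formation, had 7.72 with sh-circ_0000073 and 7.57 with sh-NC in MG-63, against 16.39 with sh-circ_0000073 and 16.53 with sh-NC in Saos-2. The osteoblast genes SP7, ALPL and IBSP lay at 2.83 to 3.97 in MG-63, so these markers were not above the olfactory receptor range there, whereas COL1A1, at 10.03 on both arrays, and SPARC, at 16.99 and 16.75, were clear in MG-63. Of the 6 measured osteoblast genes 5 were lower in MG-63 and SPARC was higher, and those 5 are also among the 8 genes used to check the lines. Over all probe sets 25.7% were called between the lines, and 55.1% of those with a mean of at least 6. Of 8 measured markers of other cell types, 7 stayed below 6 on every array, with PTPRC, PECAM1, CDH5, CDH1 and MYOD1 at 2.41 to 4.30. SOX10, at 5.09 to 5.57, was above the 95th percentile of the olfactory receptor genes on every array and was not called. DES was called higher in MG-63 (difference 0.95, SE 0.22, adjusted p = 0.0165 from limma), with every array under that percentile. The epithelial gene EPCAM had 3.43 and 3.26 in MG-63, against 9.59 and 9.45 in Saos-2, and moved with the line. Its part in the HOX differences was not tested.

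Both lines showed signal from HOXB, HOXC and HOXD genes, and more members were at or above 6 in MG-63. The counts were 9 of 23 in MG-63 with sh-circ_0000073, 11 in MG-63 with sh-NC, and 7 on each Saos-2 array. The gap was smaller with the 95th percentile of the olfactory receptor genes as the minimum, with 12 and 13 in MG-63, against 11 and 12 in Saos-2. Of all genes, 33.5% to 34.5% were at or above 6 on an array, with 34.5% and 33.9% in MG-63, against 34.1% and 33.5% in Saos-2. By cluster, MG-63 had 3 HOXB genes on both arrays, 3 and 4 HOXC genes, and 3 and 4 HOXD genes, while Saos-2 had 2 HOXB, 2 HOXC and 3 HOXD genes on both arrays. The single HOXA gene was below 6 on all arrays. In all, 13 members reached 6 on some array and 5 did so on all 4 arrays, namely HOXB2, HOXB7, HOXC9, HOXC10 and HOXD3. Their paralog numbers run from anterior to posterior in both lines.

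**Figure D1:**
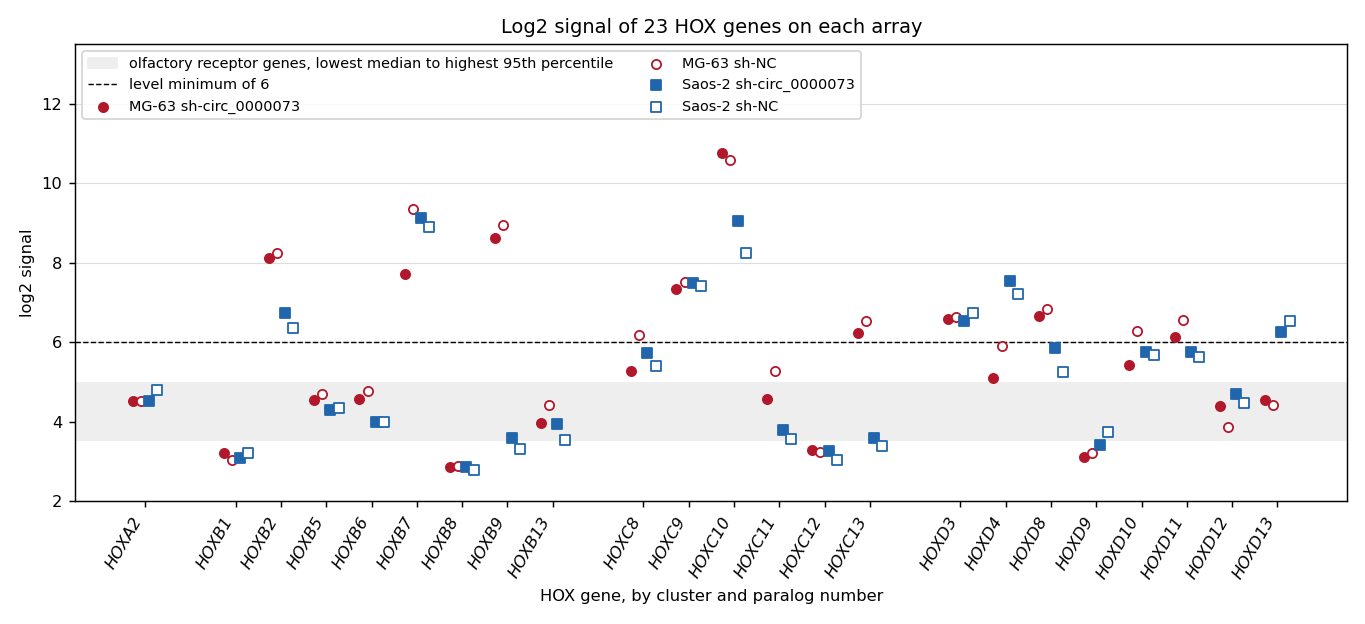
Log2 signal (y axis) of each of the 23 HOX genes (x axis, by cluster and paralog number) on the 4 arrays, with MG-63 as red circles and Saos-2 as blue squares, filled for sh-circ_0000073 and open for sh-NC; the grey band is the olfactory receptor range and the dashed line the level of 6. HOXB9, HOXC13 and HOXC11 lie in or below the band in Saos-2 and higher in MG-63, and HOXD13 lies in the band in MG-63 and above 6 in Saos-2.

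The question of how the HOX pattern of the lines differs was put with limma, as MG-63 minus Saos-2 with the hairpin as a term, over 36176 probe sets. Each line then had 2 arrays of different hairpins, 1 residual degree of freedom was left per probe set before moderation, and the p-values measure the spread between these arrays only. Of the 23 members 6 were higher in MG-63, namely HOXB2, HOXB9, HOXC10, HOXC11, HOXC13 and HOXD8, and HOXD4 and HOXD13 were lower. The other 15 were not called at an adjusted p under 0.05. The 8 called members are 34.8% of the 23, beside 25.7% of all probe sets called in this comparison (13.7% higher and 11.9% lower in MG-63). Bright probe sets were called more often, and among the 9 members with a mean signal of at least 6 the called share was 55.6%, beside 55.1% of all probe sets of that level. These 9 members were thus called about as often as other probe sets of their level. Of the 14 members under that level 3 were called, and the called share of all probe sets under it was not taken. The median difference of the 23 members was 0.14 beside 0.05 over all probe sets, and their median absolute difference was 0.46 beside 0.33. The arrays of the lines did not overlap for 14 members, 60.9%, beside 59.0% of all probe sets, with 10 higher (background 32.9%) and 4 lower (background 26.1%) in MG-63. By cluster, 2 HOXB, 3 HOXC and 1 HOXD genes were called higher in MG-63, and the 2 called lower were both HOXD genes. In bulk RNA, fewer cells with a transcript and less of it per cell cannot be told apart.

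**Figure D2:**
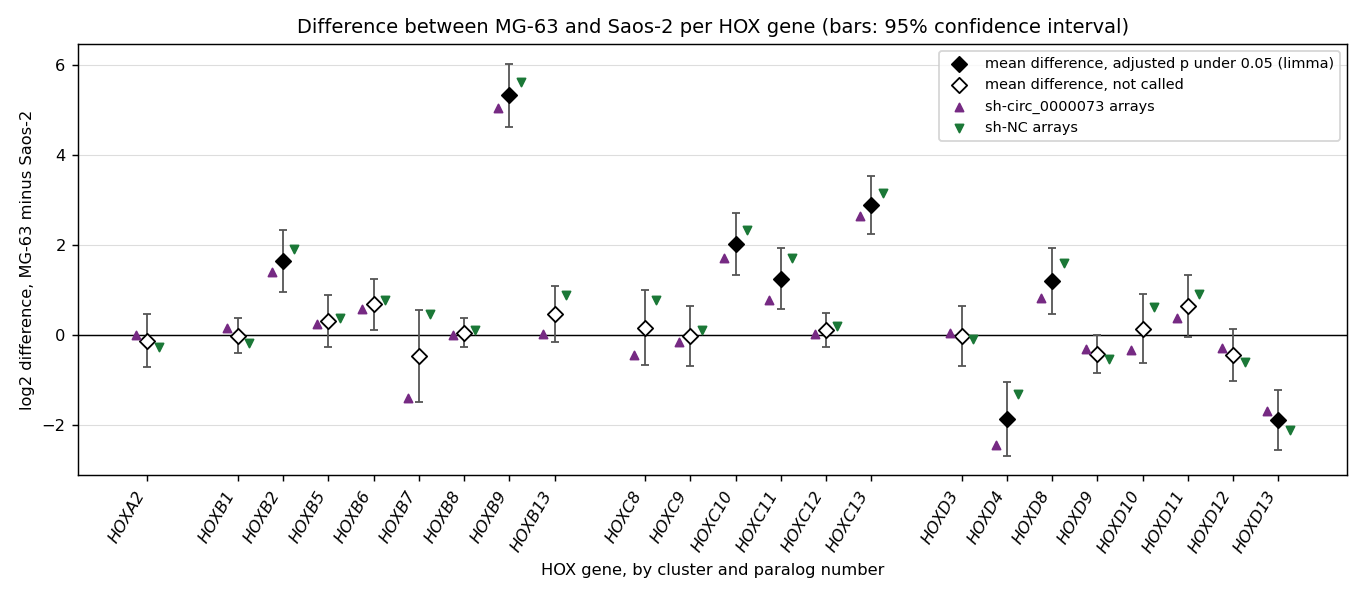
Log2 difference, MG-63 minus Saos-2 (y axis), for the 23 HOX genes (x axis, by cluster and paralog number); diamonds are the mean over both hairpins with the 95% confidence interval from limma, filled where the adjusted p was under 0.05, and triangles are the differences of the sh-circ_0000073 arrays (purple, pointing up) and of the sh-NC arrays (green, pointing down). HOXB9 has the largest difference of the 23, 5.34, and HOXD13 and HOXD4 are the 2 filled diamonds below 0.

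In the HOXB cluster on chromosome 17, HOXB9 separated the lines most. HOXB9, which shapes the thoracic skeleton with its paralogs in mice, had log2 signals of 8.63 with sh-circ_0000073 and 8.96 with sh-NC in MG-63, against 3.59 with sh-circ_0000073 and 3.33 with sh-NC in Saos-2. The Saos-2 arrays were within the olfactory receptor range and the MG-63 arrays far above it. The difference was 5.34 (SE 0.30, adjusted p = 1.78e-05 from limma), a measured 40.4-fold, and at least 17.2-fold when Saos-2 is set to the 95th percentile of the olfactory receptor genes. HOXB2, a gene of hindbrain segments and of the nerve cells that move the face in mice, had 8.12 and 8.25 in MG-63, against 6.73 and 6.35 in Saos-2. All 4 of its arrays were above 6, and the lines did not overlap. HOXB2 was 3.13-fold higher in MG-63, a difference of 1.64 (SE 0.30, adjusted p = 0.00508 from limma).

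HOXB7, a trunk-level gene often studied in tumours, had 7.72 with sh-circ_0000073 and 9.35 with sh-NC in MG-63, against 9.12 with sh-circ_0000073 and 8.89 with sh-NC in Saos-2. The MG-63 arrays lay on both sides of the Saos-2 arrays, and the mean difference was -0.47 with a 95% interval of -1.50 to 0.56 (adjusted p = 0.525 from limma). Without the MG-63 array of sh-circ_0000073 the difference turned to 0.35, and it was not called there either. HOXB6 had a difference of 0.68 (SE 0.24, adjusted p = 0.0821) and HOXB13, a gene of the tail end of the body and of the prostate, 0.46 (SE 0.27, adjusted p = 0.283), both with every array below 6. HOXB1, HOXB5, HOXB6, HOXB8 and HOXB13 stayed between 2.79 and 4.78 on all arrays. The dim HOXB8 thus stood, in RefSeq order, between HOXB7, with signal in both lines, and HOXB9, with signal in MG-63.

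In the HOXC cluster on chromosome 12, the 3 called genes were all higher in MG-63. The 6 members run from HOXC8 to HOXC13. HOXC4, HOXC5 and HOXC6 share a probe set that was left out, so no lower-numbered HOXC gene could be called. HOXC10, which helps specify the motor neurons of the hindlimb in mice, had 10.75 with sh-circ_0000073 and 10.58 with sh-NC in MG-63, against 9.04 with sh-circ_0000073 and 8.24 with sh-NC in Saos-2. Both lines had clear signal and did not overlap. The difference was 2.02 (SE 0.29, adjusted p = 0.0017 from limma), 4.07-fold. HOXC13, which is needed for hair and nails in humans, had 6.23 and 6.54 in MG-63, against 3.59 and 3.39 in Saos-2, where it lay within the olfactory receptor range. Its difference was 2.90 (SE 0.28, adjusted p = 0.000216 from limma), a measured 7.44-fold and at least 3.24-fold against the 95th percentile of the olfactory receptor genes.

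HOXC11, a neighbour that acts at lumbosacral and hindlimb levels in mice, had 4.58 and 5.28 in MG-63, against 3.80 and 3.57 in Saos-2, so no array reached 6. It was called, with a difference of 1.24 (SE 0.29, adjusted p = 0.0165 from limma), but its MG-63 mean stood at the edge of the olfactory receptor range and against the 95th percentile of those genes it was at least 1.18-fold. HOXC9, a gene of the thorax, had 7.34 and 7.51 in MG-63, against 7.50 and 7.41 in Saos-2. These arrays overlapped, with a difference of -0.03 and an interval of -0.70 to 0.64. HOXC8, a thoracic gene as well, had 5.27 and 6.18 in MG-63, against 5.72 and 5.41 in Saos-2, a difference of 0.16 (interval -0.67 to 0.99, adjusted p = 0.814). It turned to -0.30 without the MG-63 array of sh-NC, again not called. HOXC12, which lies between HOXC11 and HOXC13 in RefSeq order, was dim on every array, at 3.29 and 3.25 in MG-63, against 3.26 and 3.05 in Saos-2.

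In the HOXD cluster on chromosome 2, called genes went both ways. HOXD13, the gene of the digits whose mutation causes synpolydactyly in humans, had 4.56 with sh-circ_0000073 and 4.42 with sh-NC in MG-63, against 6.25 with sh-circ_0000073 and 6.53 with sh-NC in Saos-2. The MG-63 arrays were within the olfactory receptor range and both Saos-2 arrays above 6. The difference was -1.90 (SE 0.28, adjusted p = 0.00194 from limma), 3.73-fold lower in MG-63 as measured and at least 2.76-fold lower against the 95th percentile of the olfactory receptor genes. HOXD4, an anterior gene of the hindbrain border and neck in mice, had 5.10 and 5.90 in MG-63, against 7.54 and 7.21 in Saos-2. It did not overlap between the lines and was 3.67-fold lower in MG-63, a difference of -1.88 (SE 0.35, adjusted p = 0.00577 from limma). HOXD8, from the middle of the cluster, went the other way, with 6.66 and 6.85 in MG-63, against 5.85 and 5.25 in Saos-2. It was 2.31-fold higher in MG-63, a difference of 1.20 (SE 0.32, adjusted p = 0.0265 from limma).

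The windows around the starts of these 3 called HOXD genes are shown because they are the called members with a promoter in the RefSeq table, where 9 of the 23 members had one. Each runs 5′ to 3′ on the plus strand of GRCh38.p14, for 250 bases before and 50 after the start, at chr2:176092471-176092770 for HOXD13, chr2:176129455-176129754 for HOXD8 and chr2:176151300-176151599 for HOXD4. Capitals mark matches on either strand. The general promoter motifs searched were TATAAA, the box read by TBP, and CCAAT, the box read by NF-Y. The core bound by MEIS proteins was searched as TGACAG, and a core of many homeodomain proteins as TAATTA. The core of posterior HOX and CDX proteins was searched as TTTATG, and the composite of PBX and HOX proteins as TGATTNAT.
HOXD13: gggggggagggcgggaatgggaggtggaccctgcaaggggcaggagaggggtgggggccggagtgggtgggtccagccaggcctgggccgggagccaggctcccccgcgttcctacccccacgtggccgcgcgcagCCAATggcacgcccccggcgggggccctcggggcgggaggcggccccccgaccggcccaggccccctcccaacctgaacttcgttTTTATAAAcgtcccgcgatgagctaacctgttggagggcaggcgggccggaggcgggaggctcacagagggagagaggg
HOXD8: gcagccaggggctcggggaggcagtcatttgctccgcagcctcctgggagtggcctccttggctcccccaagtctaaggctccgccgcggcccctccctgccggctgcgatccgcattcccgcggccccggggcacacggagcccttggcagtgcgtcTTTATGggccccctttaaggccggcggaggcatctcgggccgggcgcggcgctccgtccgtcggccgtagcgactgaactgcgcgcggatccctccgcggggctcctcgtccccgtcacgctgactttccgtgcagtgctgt
HOXD4: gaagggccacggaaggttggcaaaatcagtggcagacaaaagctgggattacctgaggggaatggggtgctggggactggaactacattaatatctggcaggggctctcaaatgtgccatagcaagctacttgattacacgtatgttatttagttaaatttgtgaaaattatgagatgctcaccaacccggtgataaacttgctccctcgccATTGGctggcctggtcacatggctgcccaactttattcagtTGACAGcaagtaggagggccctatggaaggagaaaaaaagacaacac
The HOXD13 window was 74.0% GC with 24 CpG and held a CCAAT match and TATAAA on both strands, overlapping in the run TTTATAAA. The HOXD8 window was 71.7% GC with 34 CpG and held 1 TTTATG match. The HOXD4 window differed from both in base composition, with 47.3% GC and 4 CpG, and held 1 CCAAT match, read on the opposite strand, and 1 TGACAG match. Over 35116 promoters of that length the median was 58.7% GC and 14 CpG, and TATAAA was found in 11.5%, CCAAT in 34.6%, TGACAG in 15.8%, TTTATG in 10.6%, TAATTA in 4.84% and TGATTNAT in 2.82%. A match describes letters only and is no site of binding.

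The other HOXD genes did not separate the lines by the test. HOXD11, which acts in the forearm with its HOXA paralog in mice, had 6.14 and 6.55 in MG-63, against 5.76 and 5.64 in Saos-2. These arrays did not overlap, but the difference of 0.65 was not called (SE 0.30, interval -0.05 to 1.34, adjusted p = 0.171). HOXD10, a gene of the lumbar spinal cord and hindlimb in mice, had 5.43 and 6.28 in MG-63, against 5.76 and 5.67 in Saos-2, which overlapped (difference 0.14, interval -0.62 to 0.90). HOXD3, an anterior gene of the neck vertebrae in mice, had 6.58 and 6.64 in MG-63, against 6.54 and 6.74 in Saos-2, a difference of -0.03 with an interval of -0.69 to 0.63. A dimmer probe set of HOXD3 had 4.07 and 4.28 in MG-63, against 5.11 and 4.75 in Saos-2. Its difference was -0.76 (interval -1.38 to -0.13, adjusted p = 0.0842 from limma). The probe sets of this gene thus gave different estimates with overlapping intervals, and neither was called. HOXD12 (difference -0.46, SE 0.25, adjusted p = 0.247) and HOXD9 (3.11 and 3.21 in MG-63, against 3.43 and 3.74 in Saos-2) stayed between 3.11 and 4.71. HOXA2, a gene of the branchial arches and hindbrain, was at 4.53 on 3 arrays and at 4.79 on the Saos-2 array of sh-NC, a difference of -0.13 (SE 0.25).

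Across clusters, genes of the same number differed in pattern in some groups and were alike in others. Of the genes numbered 13, HOXC13 was higher in MG-63, HOXD13 was lower in MG-63, and HOXB13 stayed at 3.97 and 4.43 in MG-63, against 3.94 and 3.54 in Saos-2. Of those numbered 9, HOXB9 was higher in MG-63, HOXC9 overlapped between the lines, and HOXD9 was dim on all arrays. HOXC11 and HOXD11 were both higher in MG-63 without overlap, of which HOXC11 was called, and HOXC12 and HOXD12 were both dim on all arrays and not called. Signal that close paralogs may share on the array was not tested. In fits that left out 1 array each, HOXB9, HOXC13 and HOXD13 were called in all 4 (highest adjusted p 0.00721, 0.0134 and 0.0383). HOXB2 and HOXC10 were called only without the Saos-2 array of sh-circ_0000073 (adjusted p = 0.0413 and 0.021) and were not called without any other array, at up to 0.0774 and 0.0852. HOXC11 was called only without the MG-63 array of sh-circ_0000073 (0.0314, otherwise up to 0.161), HOXD4 only without the MG-63 array of sh-NC (0.0296, otherwise up to 0.0893), and HOXD8 in none of the 4 fits (0.0602 to 0.198). Those fits hold 3 arrays and, unlike the main fit, leave out the hairpin as a term. They assume that the lone array of a line varies like the pair of the other. The parts of the missing array and of the dropped term in a lost call were not separated.

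The hairpin against the circular RNA was then compared with its control, as sh-circ_0000073 minus sh-NC, in each line by itself and over both. Within a line there is 1 array per condition and no test, and a change past 1.5-fold was counted by its size alone. In MG-63, 5 members were lower and none higher with sh-circ_0000073, 21.7% of the 23, beside 16.1% of all probe sets past that size (8.93% higher and 7.18% lower). In Saos-2, 2 members were higher and none lower, 8.7%, beside 14.1% of all probe sets (8.91% higher and 5.22% lower). The median change was -0.17 in MG-63 and 0.20 in Saos-2, beside 0.02 and 0.06 over all probe sets. In MG-63, 17 members were below 0, 5 above and 1 at 0, while in Saos-2 7 were below and 16 above. The sign differed between the lines for 15 members, and none was past 1.5-fold in both.

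**Figure D3:**
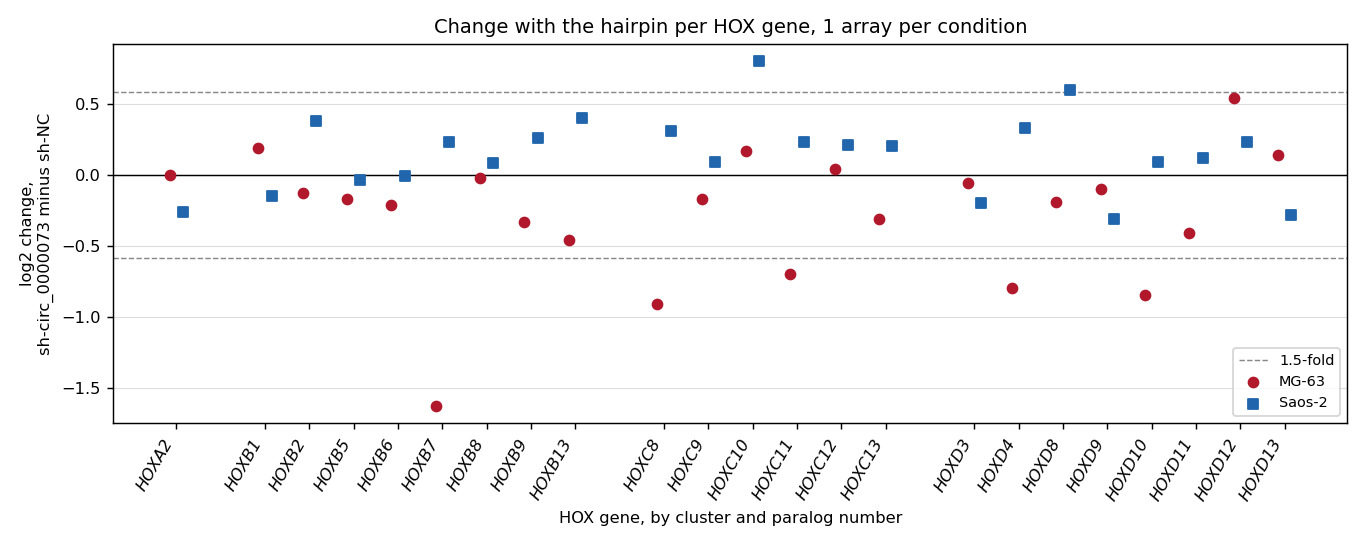
Log2 change, sh-circ_0000073 minus sh-NC (y axis), of the 23 HOX genes (x axis, by cluster and paralog number) in MG-63 (red circles) and Saos-2 (blue squares), 1 array per condition, with dashed lines at 1.5-fold. HOXB7 in MG-63 lies lowest at -1.63, and the 5 points below the lower line are all from MG-63.

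HOXB7 moved most. It had 7.72 with sh-circ_0000073 and 9.35 with sh-NC in MG-63, 3.10-fold lower, and 9.12 with sh-circ_0000073 and 8.89 with sh-NC in Saos-2. Over both lines its mean change was -0.70 (SE 0.44, adjusted p = 0.777 from limma). HOXC8 had 5.27 with sh-circ_0000073 and 6.18 with sh-NC in MG-63, 1.88-fold lower, and 5.72 with sh-circ_0000073 and 5.41 with sh-NC in Saos-2 (mean change -0.30, SE 0.36, adjusted p = 0.903). HOXD10 had 5.43 with sh-circ_0000073 and 6.28 with sh-NC in MG-63, 1.80-fold lower, and 5.76 with sh-circ_0000073 and 5.67 with sh-NC in Saos-2 (mean change -0.38, SE 0.33, adjusted p = 0.848). These 3 genes had a clear signal with sh-NC in MG-63, whereas HOXD4 (5.10 with sh-circ_0000073 and 5.90 with sh-NC, change -0.80) and HOXC11 (4.58 with sh-circ_0000073 and 5.28 with sh-NC, change -0.70) were below 6 on both arrays there. In Saos-2, HOXC10 had 9.04 with sh-circ_0000073 and 8.24 with sh-NC, 1.74-fold higher, and 10.75 with sh-circ_0000073 and 10.58 with sh-NC in MG-63 (mean change 0.48, SE 0.29, adjusted p = 0.771). HOXD8 had 5.85 with sh-circ_0000073 and 5.25 with sh-NC in Saos-2, 1.52-fold higher, with both arrays below 6. Over both lines limma called no member, and none had an unadjusted p under 0.05 (lowest 0.141). Of all probe sets 0.0% were called after adjustment and 7.26% had an unadjusted p under 0.05. The lack of calls does not show that the hairpin left the HOX genes unaltered, since the intervals were wide, as for HOXB7 at -1.73 to 0.33.

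HOX proteins bind DNA together with PBX, MEIS and PKNOX homeodomain proteins, and 8 of these 9 genes were measured. Of these, 3 were called higher in MG-63, MEIS2 was called lower and 4 were not called, beside 25.7% called of all probe sets and 55.1% of those with a mean of at least 6, a level that 5 of the 8 reached on some array. Their median difference was 0.05, the same as over all probe sets. MEIS2, which marks the part of the limb nearest the trunk, had 7.10 with sh-circ_0000073 and 8.45 with sh-NC in MG-63, against 12.60 with sh-circ_0000073 and 12.61 with sh-NC in Saos-2, a difference of -4.83 (SE 0.36, adjusted p = 6.4e-05 from limma). The lines stood far apart for MEIS2, while its relative MEIS1 overlapped. PBX3 had 10.65 and 9.58 in MG-63, against 8.57 and 8.23 in Saos-2 (difference 1.72, SE 0.31), and PBX2 8.68 and 7.88, against 7.66 and 6.45 (difference 1.22, SE 0.29). PKNOX2 was called as well, a measured 2.54-fold and at least 1.56-fold higher in MG-63, but had a signal below 6 on every array. With the hairpin, PBX2 was higher in both lines, by 1.74-fold in MG-63 and by 2.31-fold in Saos-2 (mean change 1.00, SE 0.29, adjusted p = 0.609 from limma), and MEIS2 was 2.55-fold lower in MG-63 and level in Saos-2 at a change of -0.01.

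Of 25 noncoding genes of the HOX clusters 21 were measured, and 4 were called higher in MG-63, 3 lower and 14 not, beside 13.7% higher and 11.9% lower of all probe sets. Their median absolute difference of 0.23 was below the 0.33 of all probe sets. Most were dim, and only 4 reached 6 on any array. HAGLR, which lies in RefSeq order beside HOXD3 and near HOXD4, had 3.72 with sh-circ_0000073 and 3.60 with sh-NC in MG-63, against 6.99 with sh-circ_0000073 and 5.63 with sh-NC in Saos-2. Its difference was -2.65 (SE 0.35, adjusted p = 0.00102 from limma), at least 2.61-fold lower in MG-63, in the same direction as HOXD4. HOXD3 was not called, with a difference of -0.03 for its brighter probe set and -0.755 for its dimmer one. HOXB-AS1, next to HOXB2, had 8.07 and 8.05 in MG-63, against 6.54 and 7.04 in Saos-2, a difference of 1.27 (SE 0.30, adjusted p = 0.0169), in the same direction as HOXB2. Where a sense gene and its antisense partner overlap, the strand that a probe set reads was not checked here. HOXA10-AS had 7.59 and 7.76 in MG-63, against 8.60 and 8.69 in Saos-2 (difference -0.97, SE 0.28), and HOXA-AS3 was lower in MG-63 too, a measured 2.59-fold and at least 1.31-fold, with no array at 6. These 2 were the called noncoding genes of the HOXA cluster. HOTAIR, the noncoding RNA between HOXC11 and HOXC12, had 3.62 and 4.21 in MG-63, against 3.56 and 3.21 in Saos-2, and was not called (adjusted p = 0.2).

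MIR196A1, near HOXB9, and MIR196A2, beside HOXC10, were called higher in MG-63, as were HOXB9 and HOXC10. Of the members next to these in number, HOXC11 was called higher too. HOXC9 (difference -0.03), HOXB8 (0.05) and HOXB13 (0.46) were not called, and a link between neighbours was not tested. Both microRNA genes were named after their values were seen. The mature sequence is shown because both genes give the same miR-196a-5p, a microRNA that cleaves HOXB8 mRNA. It comes from RefSeq GRCh38.p14, at chr17:48632532-48632553 on the minus strand and chr12:53991762-53991783 on the plus strand, with the seed, bases 2 to 8, in capitals.
hsa-miR-196a-5p: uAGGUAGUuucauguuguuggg
MIR196A1 had 5.94 and 6.41 in MG-63, against 5.04 and 5.42 in Saos-2 (difference 0.94, SE 0.28, adjusted p = 0.0417 from limma), and MIR196A2 3.66 and 4.33, against 3.13 and 3.39 (difference 0.73, SE 0.21, adjusted p = 0.0354). All arrays of MIR196A2 were under the 95th percentile of the olfactory receptor genes, so no fold is given. HOXB8 itself stayed at 2.87 and 2.89 in MG-63, against 2.87 and 2.79 in Saos-2. Whether these probe sets read a precursor or the mature RNA is not given in the sources used here.

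**Figure D4:**
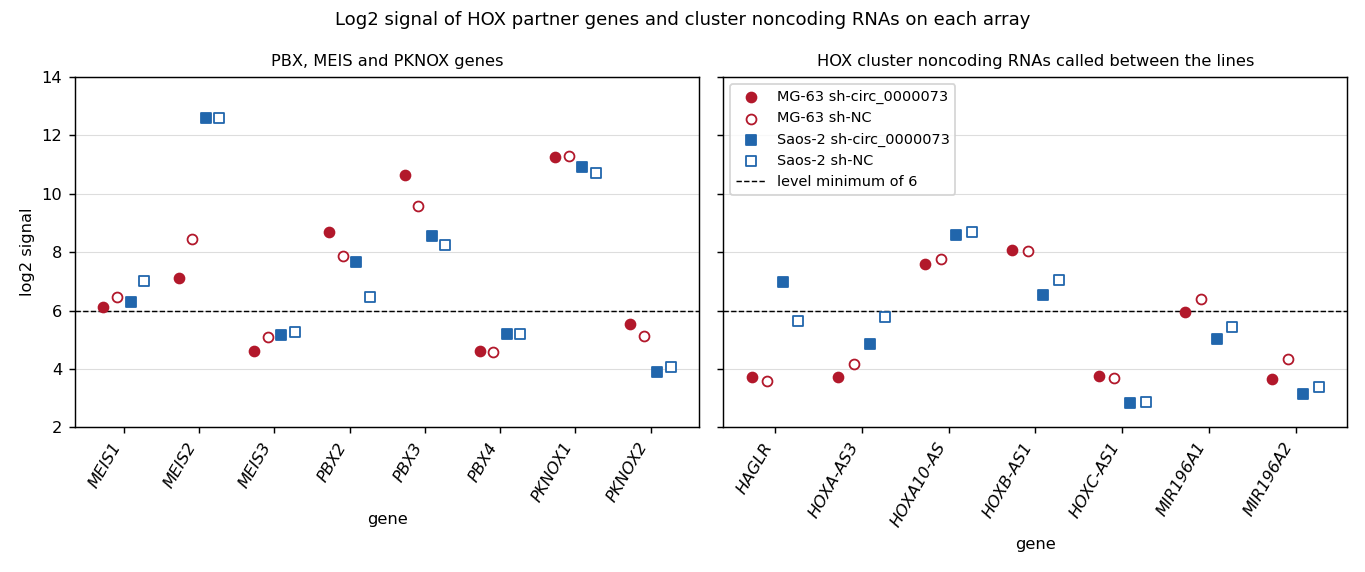
Log2 signal (y axis) of the measured PBX, MEIS and PKNOX genes (left) and of the 7 HOX cluster noncoding genes called between the lines (right) on the 4 arrays, with MG-63 as red circles and Saos-2 as blue squares, filled for sh-circ_0000073 and open for sh-NC, and a dashed line at 6. MEIS2 is at 7.10 and 8.45 in MG-63, against 12.60 and 12.61 in Saos-2, and HAGLR lies below 6 in MG-63.

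Genes that flank the clusters were measured for 13 of 14, with 4 called higher in MG-63, HNRNPA1 called lower and 8 not called, beside 25.7% called of all probe sets and 55.1% at a mean of at least 6, a level that 7 of the 13 reached on some array. CALCOCO2, an autophagy receptor some genes beyond HOXB13, had 15.13 and 15.24 in MG-63, against 11.45 and 11.19 in Saos-2 (difference 3.86, SE 0.23, adjusted p = 2.09e-05 from limma). PRAC2, which stands between HOXB9 and HOXB13, had 5.38 and 5.27 in MG-63, against 4.18 and 4.01 in Saos-2, a measured 2.35-fold and at least 1.56-fold against the 95th percentile of the olfactory receptor genes. The other 2 called higher were SKAP2 and SMUG1, and beside HOXD13 the homeobox gene EVX2 stayed at 3.86 and 3.93 in MG-63, against 4.19 and 4.27 in Saos-2.

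Regulators known to act on HOX genes differed between the lines in both directions. Polycomb proteins keep HOX genes silent, and of 17 measured Polycomb genes 6 were called higher and 6 lower in MG-63. Their median absolute difference was 1.57. The called share was 25.7% of all probe sets and 55.1% of those with a mean of at least 6, a level that 16 of the 17 reached on some array. JARID2, a subunit that helps recruit the complex, had 4.38 and 4.62 in MG-63, against 12.36 and 10.53 in Saos-2, at least 91.9-fold lower in MG-63. The methyltransferase gene EZH2 (difference -3.18, SE 0.29), MTF2 (-4.41, SE 0.28) and CBX6 (-4.52, SE 0.37) were lower in MG-63 as well. Among the 6 called higher were RING1 (difference 3.09, SE 0.28), PHF1 (2.27, SE 0.29) and EZH1 (2.07, SE 0.29). The MLL and menin group keeps HOX genes active and here includes demethylases that oppose Polycomb. Of its 11 genes 3 were called higher in MG-63 and 2 lower, beside the same shares of all probe sets, and all 11 reached 6 on some array. PSIP1, at 16.00 and 16.86 in MG-63 against 12.22 and 12.80 in Saos-2, was among the higher. The 2 lower were KDM6A (difference -2.10, SE 0.25) and WDR5 (-1.775, SE 0.26). The part of these regulators in the HOX differences was not tested.

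Retinoic acid switches on the anterior HOX genes, and of 14 genes of its pathway 5 were called higher and 1 lower in MG-63, beside 25.7% called of all probe sets and 55.1% at a mean of at least 6, a level that 6 of the 14 reached on some array. The receptor gene RARB, the 1 called lower, had 3.77 and 3.05 in MG-63, against 8.70 and 9.81 in Saos-2, at least 20.1-fold lower in MG-63. Another receptor gene, RARA, went the other way, with 10.17 and 10.28 in MG-63, against 7.63 and 6.45 in Saos-2 (difference 3.185, SE 0.37). ALDH1A3 was higher in MG-63 as well (difference 4.25, SE 0.30). CRABP2, a retinoic acid carrier, had 11.00 and 11.58 in MG-63, against 6.15 and 6.09 in Saos-2, a difference of 5.17 (SE 0.30). Of 20 other genes of limb and skeletal position 3 were called higher and 4 lower, beside the same shares, and 11 of the 20 reached 6 on some array. PITX1, which specifies the hindlimb, had 13.30 and 12.77 in MG-63, against 8.02 and 7.16 in Saos-2 (difference 5.44, SE 0.27), while the forelimb gene TBX5 was dim in both lines, at 3.62 to 3.69. The hindlimb gene TBX4 was dim in both lines as well, at 3.52 to 4.29, and ISL1 of the same list lay at 4.66 to 5.03. Neither was called. The bone gene DLX5 had 3.35 and 2.95 in MG-63, against 12.80 and 14.22 in Saos-2, at least 384-fold lower in MG-63. All 6 ParaHox and CDX genes, the nearest relatives of the HOX genes outside the clusters, lay between 2.75 and 4.46 and none was called. With the hairpin, limma called no gene of any of these lists.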

How the data were processed

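Total RNA was extracted with TRIzol, and the GeneChip WT Pico kit was used for labelling. The deposited table holds log2 signals per probe set for the 4 arrays, which the authors computed in Affymetrix Expression Console, according to the processing notes of the submitters. Not given in the sources used here are its version, the summarisation, the background correction and the build of the array design. All sample columns were used.

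Of 135750 probe sets, 36176 carried 1 gene symbol, 1119 several and 98455 none. The 1-symbol probe sets were used, with 623 symbols updated through the RefSeq gene table of GRCh38.p14, and probe sets shared by several HOX genes were left out. Differences were fitted with limma 3.58.1 in R 4.3.3, by lmFit and eBayes with a mean-variance trend and the line and the hairpin as terms, and adjusted by Benjamini-Hochberg over all 36176. The code was tested on simulated data. Tables were made in Python 3.11.15 with numpy 2.4.6 and pandas 2.3.3. With 1 array per condition in a line, changes there were taken by a size of 1.5-fold. The number of arrays limits the precision, and nothing says that they came from separate cultures of a condition.

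Where both arrays of a line lay under the 95th percentile of the olfactory receptor genes on their own array, a fold given as at least is the mean of the brighter line minus the mean of those percentiles. Values on every array are given for members at 6 or more on any array, full statistics for up to 5 members per cluster with the largest absolute line difference and for members past 1.5-fold with the hairpin at a signal of at least 6, and from each other list up to 4 genes with the largest line difference. SKAP2, SMUG1, HNRNPA1, EVX2, MIR196A1, MIR196A2, HOTAIR, TBX5, MEIS1 and HOXB8 in its setting beside miR-196a were named outside this rule, after their values were seen. The same holds for TBX4, ISL1, RING1, PHF1 and EZH1. The members and the lists were chosen with earlier results of these data known. Alternatives were other filters on dim probe sets, all probe sets, centring or quantile normalisation, other limma settings, a 2-fold size, other level minimums and leaving out each array.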

Additional observations from a re-analysis of the deposited data

Results flagged for a closer look

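For 3 members the change with sh-circ_0000073 had opposite signs in the lines and was more than 2-fold apart between them. With 1 array per condition in each line these differences were not tested. The change of HOXB7 was -1.63 in MG-63 and 0.23 in Saos-2, so the change in MG-63 minus that in Saos-2 was -1.86. HOXC8 changed by -0.91 in MG-63, against 0.31 in Saos-2, which differ by -1.22. HOXD4 changed by -0.80 in MG-63, against 0.33 in Saos-2, which differ by -1.13, with both MG-63 arrays below a log2 signal of 6.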

How the results depend on the processing

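The same 8 members were called between the lines by limma without the hairpin as a term, without a variance trend, with robust moderation, after quantile normalisation or centring, and with the mean of all probe sets of a gene. With all probe sets tested 6 were called, and HOXC11 (adjusted p = 0.0736) and HOXD8 (0.0831) were not; both the moderation and the adjustment then run over more features, and their parts were not separated. With only probe sets at a mean of 6 or more, 9 members were left, 4 called higher and 1 lower in MG-63. Leaving out 1 array at a time gave 2 to 4 members higher and 1 to 2 lower. HOXB7 then ranged from -1.285 to 0.345, positive only without the MG-63 array of sh-circ_0000073, and HOXC8 from -0.295 to 0.615, negative only without the MG-63 array of sh-NC; the cause was not tested. By arrays that do not overlap, a choice made after seeing the data, 10 were higher and 4 lower. No hairpin call over both lines appeared under any limma alternative run, and leaving out an array there leaves no residual degree of freedom with the line and the hairpin both kept as terms. Past 2-fold, 1 member was lower in MG-63 (HOXB7) and 0 higher in Saos-2, and with the higher signal at 6 or more the counts were 3 and 1. At a level of 7, 5 and 5 members counted in MG-63, against 4 and 4 in Saos-2, at a level of 5 the counts were 12 and 13 in MG-63, against 11 and 11 in Saos-2, and at the 95th percentile of the olfactory receptor genes 12 and 13 in MG-63, against 11 and 12 in Saos-2, so the lead of MG-63 at 6 was nearly lost. Signals under that percentile carry little information on order or size. The fit already pairs the arrays by line and by hairpin, and the labels give no replicate numbers for any other pairing.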
